A study of Mus musculus with 35 samples.

Results

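The cytosolic ribosomal protein genes were followed across 6 groups of sorted mouse CD8 T cells. The members were all rows of the count table whose symbol is Rpl or Rps followed by a digit, together with Rplp0, Rplp1 and Rplp2. Symbols that contain -ps and the S6 kinases (Rps6k) were left out. This rule gave 92 of the 22865 genes of the table, 37 with small subunit (Rps) names and 55 with large subunit (Rpl) names. Of the 92 genes, 85 are annotated as protein coding in GENCODE M21 and 7 as pseudogenes (Rpl37rt, Rpl32l, Rps3a2, Rps3a3, Rps4l, Rpl6l and Rps12l1), and Rps19bp1 encodes a binding partner of Rps19 and no subunit.

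The cytosolic ribosome joins a small subunit, which decodes the mRNA, and a large subunit, which forms the peptide bond. Its proteins are needed in near equal numbers, and many of their mRNAs begin with a run of pyrimidines, the 5' terminal oligopyrimidine (TOP) tract, through which the mTOR pathway and the RNA-binding protein Larp1 set their translation and stability. In T cells, ribosome production is known to rise on activation, with Myc among its drivers.

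All mice were C57BL/6 and 13 months old and had been kept on ND (normal diet) or CD-HFD (choline-deficient high-fat diet, which is used to model fatty liver disease with inflammation). From the liver, CD8 T cells were sorted as CXCR6pos or CXCR6neg, CXCR6 being a chemokine receptor of liver-resident T cells. From the spleen they were sorted as CX3CR1neg, CX3CR1 being a chemokine receptor of effector T cells. The groups held 5 CD-HFD CXCR6pos, 6 CD-HFD CXCR6neg, 6 CD-HFD spleen, 6 ND CXCR6pos, 4 ND CXCR6neg and 5 ND spleen libraries of 3' RNA-seq, in which each read starts near the end of a transcript. The labels do not say whether replicates came from separate mice, so p-values measure only the spread between these libraries.

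The 32 libraries held 15633 to 978896 counts. The smallest was ND CXCR6pos replicate 1, followed at 57168 counts by replicate 5 of the CD-HFD CXCR6pos group. Cd8a was present in every group, at group means of 880 to 1485 CPM, a gene's counts per 1e+06 of a scaled library size (see the processing section). Cxcr6 followed the gate in CD-HFD livers, with 573 to 867 CPM in CXCR6pos and 52.9 to 124 CPM in CXCR6neg libraries. In ND livers the gates overlapped: CXCR6pos replicate 6 had 201 CPM and CXCR6neg replicate 4 had 450 CPM. Where leaving out these 2 libraries changed a call described below, the value without them is given for genes followed singly through the alternatives.

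The annotated transcription starts of 11 members named below are shown as examples, some with and some without a long run of pyrimidines as known from this gene family. RefSeq promoter entries (GRCm38.p6) matched 67 of the 92 members. The 30 bases around the annotated start are printed 5' to 3' on the gene's strand, with the longest run of pyrimidines (C or T) in capitals. The start follows the first 15 bases. By this annotation the runs of Rps19, Rpl13, Rpl41, Rps27l and Rpl22 end before the start, and those of Rps2 and Rpl22l1 begin after it. Rps19 lies at chr7:24884577-24884606 (+), Rps18 at chr17:33955651-33955680 (-), Rpl13 at chr8:123102335-123102364 (+), Rps24 at chr14:24490663-24490692 (+), Rps28 at chr17:33824548-33824577 (-), Rps2 at chr17:24720048-24720077 (+), Rpl41 at chr10:128549154-128549183 (-), Rps27 at chr3:90213634-90213663 (-), Rps27l at chr9:66946071-66946100 (+), Rpl22 at chr4:152325711-152325740 (+) and Rpl22l1 at chr3:28805493-28805522 (+).
Rps19: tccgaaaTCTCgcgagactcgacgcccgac
Rps18: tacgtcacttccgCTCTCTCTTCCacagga
Rpl13: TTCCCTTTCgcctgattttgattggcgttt
Rps24: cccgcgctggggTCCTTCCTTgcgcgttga
Rps28: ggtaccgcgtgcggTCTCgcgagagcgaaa
Rps2: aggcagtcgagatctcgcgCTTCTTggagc
Rpl41: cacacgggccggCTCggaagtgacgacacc
Rps27: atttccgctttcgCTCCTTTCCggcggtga
Rps27l: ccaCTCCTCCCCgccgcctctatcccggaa
Rpl22: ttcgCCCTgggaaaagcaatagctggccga
Rpl22l1: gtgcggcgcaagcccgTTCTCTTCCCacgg
A run of at least 8 pyrimidines on the gene's strand, within 15 bases of the start, was present in 26 of the 67 members (38.8%) and in 11.9% of the 27025 gene symbols in the RefSeq promoter entries. The word CTTTCC in the same window was present in 10 members (14.9%) and in 1.39% of all RefSeq symbols. CCGGAAG, a match to the core of ETS factor sites, was present on either strand of the 300 base promoter in 24 members (35.8%) and in 9.12% of all symbols. The run of pyrimidines was present in 7 of the 17 members with an entry that were lower in CD-HFD than ND CXCR6pos cells (41.2%) and in 17 of the 41 other tested members (41.5%), and the annotated starts may lie some bases from those used in T cells.

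Most members were abundant, and many shared their counts with pseudogenes. Averaged over the 6 groups, 38 members reached 1000 CPM and 56 reached 200 CPM. Among the highest were Rpl32 (6240 CPM), Rps14 (5839), Rps19 (4559) and Rps3 (4158). Among the lowest that passed the filter on low counts were Rpl12 (21.8 CPM), Rpl10a (23.2), Rpl17 (32.8) and Rpl23a (33.3). These levels do not rank the genes' mRNAs, because ribosomal protein genes have processed pseudogenes, copies of their spliced mRNA elsewhere in the genome. The table held 593 such copies of the members with 801485 counts, against 1215706 counts on the members themselves, so that 39.7% of the sum was on copies. For 35 members the copies held more counts than the gene.

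The share on copies ran from none to nearly all of a gene's counts. Rps3 had no copy in the table. Copies whose own symbol met the rule, such as Rpl37rt (28983 counts, against 23721 on Rpl37), were counted as members and not as copies. Rpl24 had 26 counts on the gene and 20089 on its copies, Rps29 had 219 and 31804, Rps6 had 157 and 11495, and Rpl13a had 2399 and 48037. Rps6, the substrate of the S6 kinases, and Rpl5, which with Rpl11 and the 5S RNA forms the particle that binds Mdm2, did not pass the filter on their own counts. In all, 78 of the 92 members passed it and were tested (31 Rps and 47 Rpl). The other 14 were Rps27a, Rps29, Rps12, Rps6, Rpl36a, Rpl5, Rpl28, Rps4l, Rpl24, Rpl39l, Rpl6l, Rpl10l, Rpl3l and Rps12l1. The tissue-restricted paralogs Rpl39l, Rpl10l and Rpl3l held 15, 3 and 2 counts over all libraries, while Rpl39 averaged 1327 CPM.

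**Figure D1:**
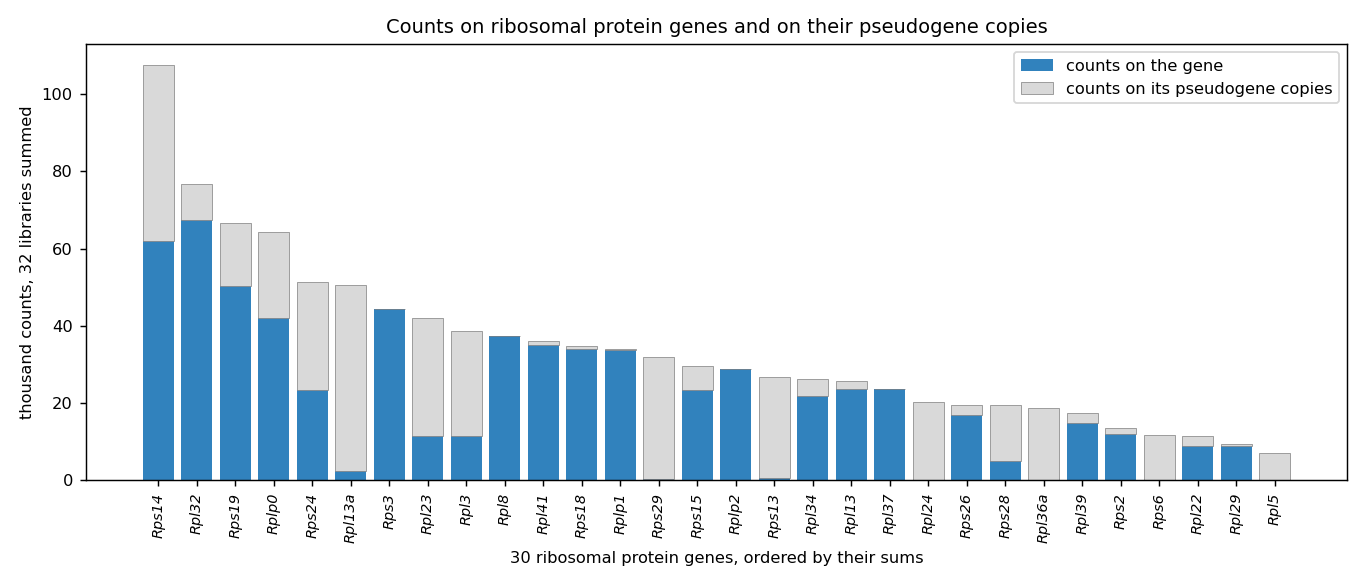
Counts in units of 1000, summed over the 32 libraries, on each of 30 ribosomal protein genes named in the text (blue) and on the pseudogene copies of that gene (grey). Rps3 has no grey part, while Rpl13a, Rps29 and Rps13 are nearly all grey.

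The summed ribosomal protein counts took the largest share of the libraries in the spleen and the smallest in CD-HFD CXCR6pos cells. In spleen cells the share was 12.7% ± 0.749 (SD, n = 5) on ND and 12.2% ± 0.478 (n = 6) on CD-HFD. It was 10.9% ± 1.24 (n = 4) in ND CXCR6neg and 10.2% ± 0.570 (n = 6) in CD-HFD CXCR6neg cells. It was 9.76% ± 0.965 (n = 6) in ND CXCR6pos and 7.73% ± 0.630 (n = 5) in CD-HFD CXCR6pos cells. The 5 CD-HFD CXCR6pos libraries had 8.58%, 8.05%, 7.78%, 7.22% and 7.02%, all below the lowest CD-HFD CXCR6neg library (9.46%). Replicate 1 (8.58%) lay just above the lowest ND CXCR6pos library (8.54%), so the diets overlapped in that gate. The spleen groups overlapped each other, as did the CXCR6neg groups, and neighbours in the order ND CXCR6neg, CD-HFD CXCR6neg and ND CXCR6pos were closer than their spread.

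The order of the groups was the same for each subunit and with the copies added. Small subunit genes fell from 6.08% of the counts in ND spleen to 3.63% in CD-HFD CXCR6pos cells, and large subunit genes from 6.66% to 4.10%. With copies the shares were 21.0%, 20.4%, 18.1%, 16.8%, 16.2% and 12.8% in the order of the groups given before. In sorted bulk samples, fewer cells of a type and less of an mRNA per cell cannot be told apart.

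**Figure D2:**
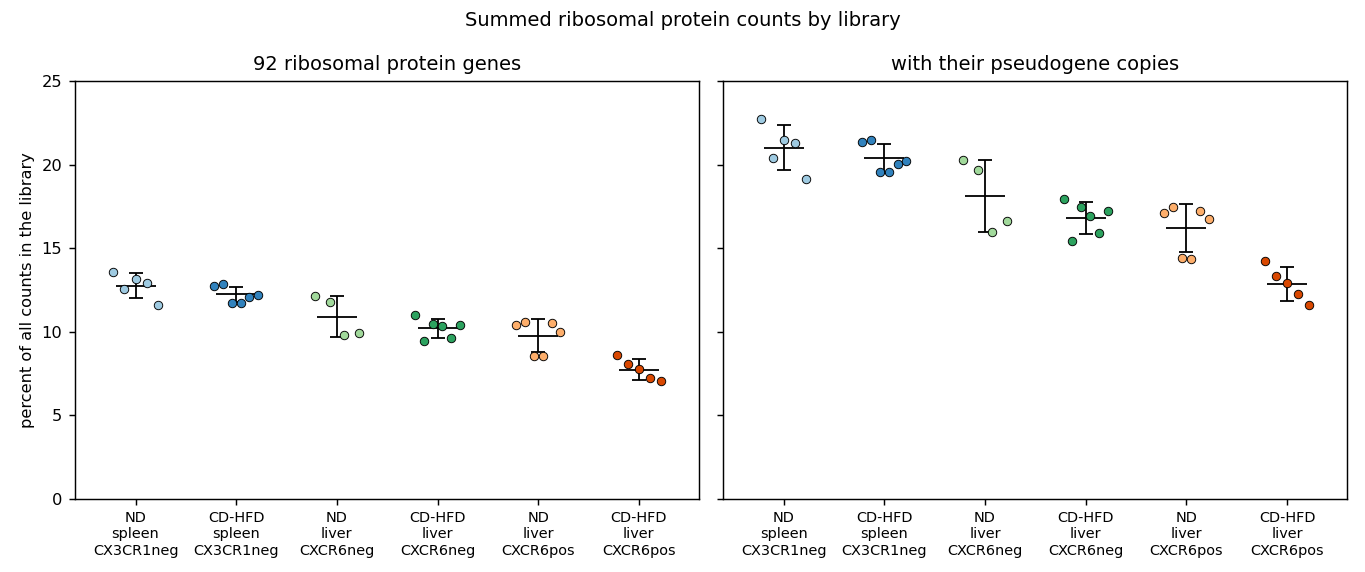
Percent of each library's counts on the 92 ribosomal protein genes (left) and on these genes with their pseudogene copies (right). Each point is a library and lines with bars give group means ± SD; CD-HFD CXCR6pos cells (7.02% to 8.58% on the left) have the lowest mean in both panels.

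Within CD-HFD livers, members were lower in CXCR6pos than in CXCR6neg cells, and none was higher. Of the 78 tested members, 33 were lower at an adjusted p below 0.05 (edgeR quasi-likelihood test, Benjamini-Hochberg over 6174 genes) and 0 higher. Among all genes tested, 6.38% were lower and 4.76% higher. The median log2 fold change of the members was -0.33, against -0.0022 for all genes, and 70 of 78 values were below 0. The 2 groups of libraries did not overlap for 18 members, all lower in CXCR6pos cells. Overlap, here and below, was looked at for members only, so no share of all genes stands beside these counts. The 33 calls held 15 small and 18 large subunit genes, and all 33 averaged at least 200 CPM, so the 22 tested members below that level gave none.

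Rps19, a small subunit protein needed to mature the 18S ribosomal RNA and mutated in Diamond-Blackfan anemia, had the smallest p. Its levels in the 5 CD-HFD CXCR6pos libraries were 2664, 2599, 2670, 3128 and 1857 CPM. The 6 CXCR6neg libraries ran from 3800 to 5049 CPM with a median of 4382. The groups did not overlap, and the log2 fold change was -0.75 ± 0.11 (SE, adjusted p = 7.1e-08), a 1.68-fold lower level. Rps18, a protein of the small subunit head, was at 2067, 2137, 1755, 1910 and 1592 CPM in CXCR6pos cells and at 2666 to 3368 (median 3093) in CXCR6neg cells. Again no library crossed over (-0.68 ± 0.10, adjusted p = 1.2e-07). Rpl29, a large subunit protein at the surface of the ribosome, was at 502, 513, 461, 439 and 318 CPM against 639 to 885 (median 692), a log2 fold change of -0.67 ± 0.12 (adjusted p = 7.5e-06).

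The next members by p were Rpl41 (-0.54), a very short protein at the subunit interface, Rpl13 (-0.57) and Rpl8 (-0.55). Of the stalk proteins, which recruit the translation factors, Rplp0 (-0.52 ± 0.10, adjusted p = 2.9e-05) and Rplp2 (-0.37 ± 0.11, adjusted p = 0.0098) were lower, and Rplp1 was at -0.31 ± 0.12 without passing the test (adjusted p = 0.069). Rps3, which lines the mRNA entry channel, was lower (-0.33, adjusted p = 0.014), as was Rpl3, near the peptidyl transferase centre (-0.32, adjusted p = 0.030). The calls of Rplp2 and Rps3 were lost without CD-HFD CXCR6pos replicate 4 (adjusted p = 0.066 and 0.090). The call of Rpl3 was lost with no filter on low counts (adjusted p = 0.096) and without any of CD-HFD CXCR6pos replicates 2, 3 or 5 or CXCR6neg replicates 1, 3 or 4 (adjusted p up to 0.093). Rpl11 was at -0.25 (adjusted p = 0.39). Rpl22 (-0.24, adjusted p = 0.21) and its paralog Rpl22l1 (-0.05, adjusted p = 0.89) did not pass the test.

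The fall was not of 1 size. Over the 56 members of at least 200 CPM, log2 fold changes ran from -0.75 to -0.03 with an SD of 0.17, while the median SE of a member was 0.11. Markers of other states and cells moved along. All 9 plasmacytoid dendritic cell markers were lower in CXCR6pos cells, with summed levels of 159 to 224 CPM against 974 to 1580, and Ccr9 and Spib at 0 counts in CXCR6pos cells. Of 5 tested B cell markers 4 were lower (265 to 425 CPM summed over all 9 against 1282 to 1671), with Cd79a and Ms4a1 at 0 counts in CXCR6neg cells. All 7 naive T cell genes, such as Tcf7, were lower (851 to 1220 CPM against 2879 to 3643), as were 5 of 10 tested mitochondrially encoded transcripts. The part of these cells and states in the ribosomal protein values was not tested.

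Within ND livers, no member passed the test between CXCR6pos and CXCR6neg cells. The count was 0 of 78 in either direction with edgeR and 2 lower with DESeq2, and 24 members had an unadjusted p below 0.05. By adjusted p, 0.0324% of all genes were lower and 0% higher. No share of all genes at the unadjusted level is given here. The median log2 fold change was -0.20 and 69 of 78 values were below 0. Rps19 was at 3250 to 4913 CPM (median 4265) in the 6 CXCR6pos libraries and at 5336, 5172, 3467 and 5423 CPM in the 4 CXCR6neg libraries (-0.19 ± 0.11, adjusted p = 0.71). The groups overlapped through CXCR6neg replicate 4, which is also the library with 450 CPM of Cxcr6. Without both libraries that went against their gate, 1 member was lower, and without CXCR6pos replicate 6 alone 1 member was lower. Summed plasmacytoid dendritic cell markers of CXCR6pos replicate 6 were at 1200 CPM, inside the CXCR6neg range (660 to 1304 CPM). Its B cell markers (1560 CPM) also lay inside that of CXCR6neg libraries (885 to 1796 CPM).

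Diet went with lower ribosomal protein mRNA in CXCR6pos cells. Of 78 members 21 were lower in CD-HFD than in ND CXCR6pos cells and 0 higher, against 6.45% lower and 4.84% higher among all genes. The median was -0.28, and 71 of 78 values were below 0. By subunit, 8 calls were Rps and 13 Rpl genes. The groups did not overlap for 4 members, Rps19, Rps18, Rpl29 and Rpl32l, a count not made over all genes. The count was 13 without CD-HFD CXCR6pos replicate 4, 15 without the 2 ND libraries that went against their gate, and 34 when libraries were scaled by their totals alone.

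Rps19 led here too. Its 5 CD-HFD values, given above, all lay below the lowest ND value (3250 CPM), and the log2 fold change was -0.69 ± 0.11 (adjusted p = 4.8e-07). Rps18 ran from 2553 to 3332 CPM (median 2948) in ND cells, above all CD-HFD libraries (-0.62 ± 0.10, adjusted p = 1.1e-06). Rpl29 ran from 594 to 953 CPM (median 785) in ND cells, and its log2 fold change was -0.72 ± 0.12 (adjusted p = 1.2e-06).

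Other members were lower on average with libraries that overlapped. Rps24, a small subunit protein also tied to Diamond-Blackfan anemia, was at 1660, 1505, 1376, 1264 and 1079 CPM in CD-HFD cells and at 1610 to 2321 (median 2170) in ND cells (-0.54 ± 0.11, adjusted p = 6.7e-05). Rpl13 (-0.53 ± 0.10, adjusted p = 4.7e-05), Rpl41 (-0.46) and Rps28 (-0.61 ± 0.14, adjusted p = 0.00049) were lower too, each with ND replicate 1, the shallowest library, inside the CD-HFD range. That library had 10.4% of its counts on ribosomal protein genes, within the ND CXCR6pos range (8.54% to 10.6%). Its CD8 T cell markers summed to 5958 CPM, the lowest of ND CXCR6pos libraries that reached 10593 CPM. Its mitochondrially encoded transcripts were 4.34% of all its counts, the highest of its group. In CPM they stood at 33433, near the group mean of 33409. The part of its scaling in these low values was not tested. Of the stalk, Rplp0 was lower (-0.30, adjusted p = 0.034), and Rplp1 (-0.25) and Rplp2 (-0.30, adjusted p = 0.053) did not pass. The Rplp0 call was lost without the 2 ND libraries that went against their gate (-0.28, adjusted p = 0.058) and without any of ND replicates 2, 5 or 6 or CD-HFD replicates 1 or 4 (adjusted p up to 0.19), so it does not set Rplp0 apart from the other stalk genes.

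The paralogs Rpl22 and Rpl22l1 are set side by side here. Rpl22, known for its role in T cell development, was at 650, 597, 685, 511 and 548 CPM in CD-HFD and at 588 to 886 (median 835) in ND cells (-0.35 ± 0.12, adjusted p = 0.034). This call was lost under 11 of 22 alternatives, among them DESeq2 (adjusted p = 0.057), leaving out any of ND replicates 2, 5 or 6 or CD-HFD replicates 2, 4 or 5 (adjusted p up to 0.18), and leaving out the 2 ND libraries that went against their gate (adjusted p = 0.087). Rpl22l1 was at 443, 435, 566, 502 and 354 CPM in CD-HFD and at 295 to 481 (median 388) in ND cells (0.21 ± 0.12, adjusted p = 0.34). The difference between the paralogs was not tested. Beside these values, all 7 naive T cell genes were lower with CD-HFD (851 to 1220 CPM against 2626 to 3806), while 0 of 9 plasmacytoid dendritic cell markers and 0 of 5 B cell markers passed the test. Among ND CXCR6pos libraries, replicate 6 had 1200 CPM of summed plasmacytoid dendritic cell and 1560 CPM of summed B cell markers. The other ND CXCR6pos libraries had 98.5 to 188 and 248 to 689 CPM, so these marker results include 1 library unlike the rest. The part of the naive genes' cells in the result was not tested.

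In the other 2 populations no member passed the diet test. In CXCR6neg cells the median was -0.13, with 72 of 78 values below 0 and 7 at an unadjusted p below 0.05 (DESeq2 also gave 0 calls). By adjusted p, 0.178% of all genes were lower and 0.292% higher. For neither population is a share of all genes at the unadjusted level given here. In the spleen the median was -0.05, with 55 of 78 values below 0 and 0 at an unadjusted p below 0.05 (DESeq2 also gave 0 calls), against 0.0162% lower and 0.0162% higher among all genes. Rps19 was at -0.13 ± 0.11 in CXCR6neg and at -0.18 ± 0.10 in spleen cells, and Rps18 at -0.13 ± 0.10 and -0.05 ± 0.09. In the spleen, the SD over the 56 abundant members (0.07) was below their median SE (0.10).

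**Figure D3:**
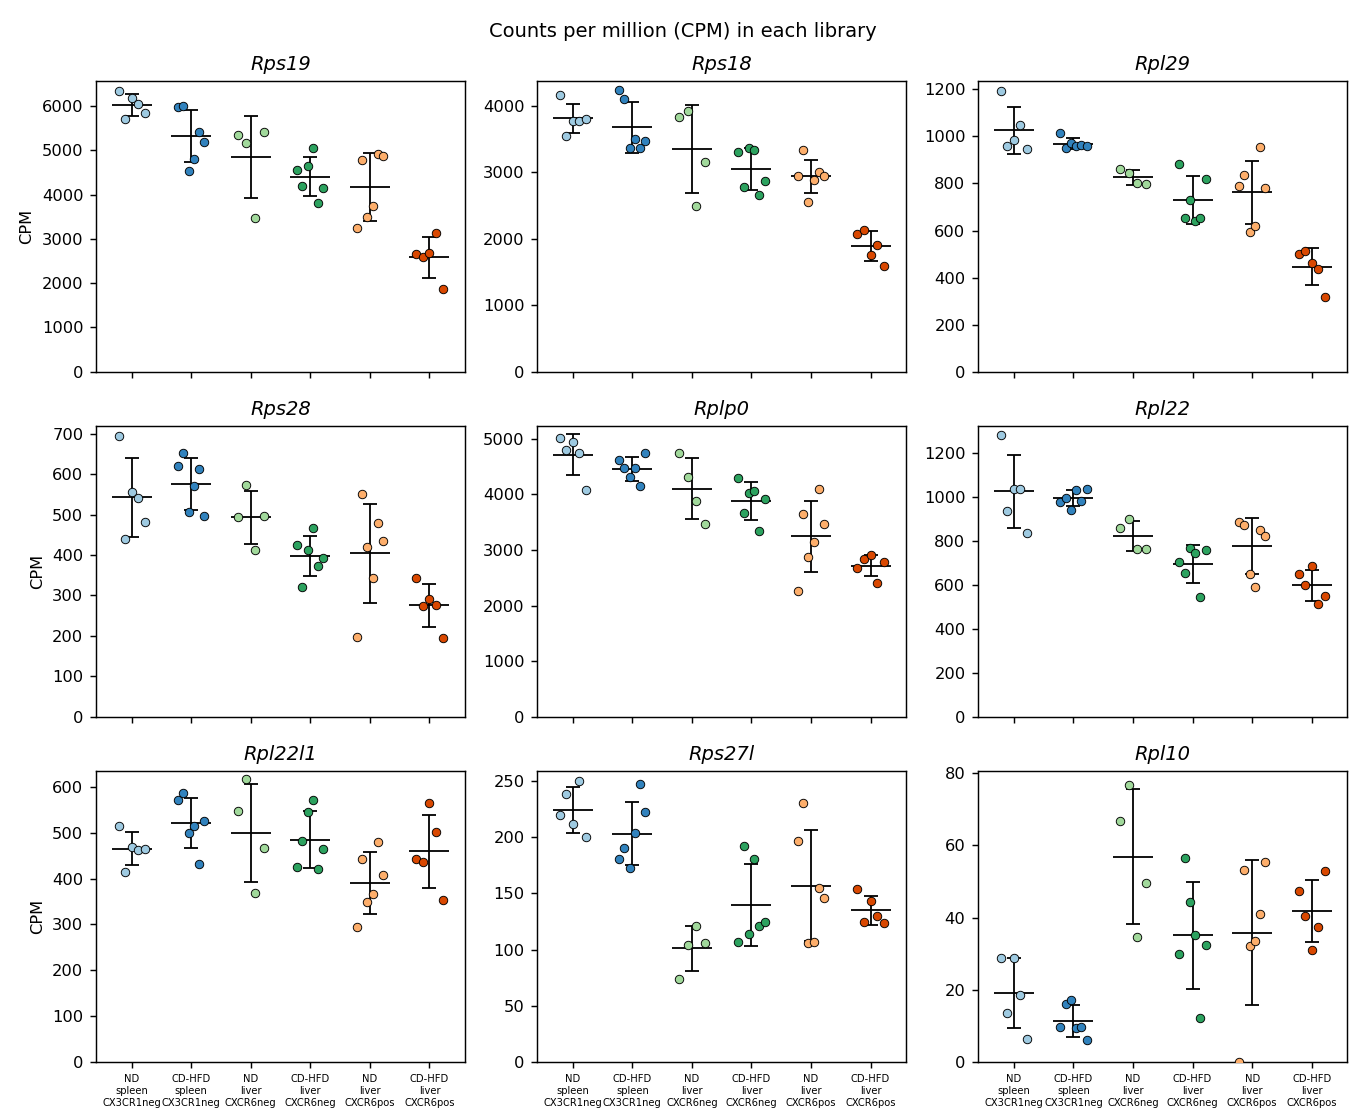
CPM of selected ribosomal protein genes by group, each point a library, with group means ± SD as lines with bars and the vertical axes starting at 0. Rps19, Rps18 and Rpl29 lie lowest in CD-HFD CXCR6pos cells without overlap with ND CXCR6pos or CD-HFD CXCR6neg cells, while the means of Rpl10 are lowest in the spleen.

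Whether the CXCR6 difference depended on diet was tested as an interaction, the CXCR6pos against CXCR6neg log2 difference in CD-HFD minus that in ND. Rps19 was the 1 member that passed (-0.56 ± 0.15, adjusted p = 0.038), against 1.00% lower and 0.437% higher among all genes. The median over members was -0.13. The call was lost under 16 of 32 alternatives, where its adjusted p reached 0.29, including the removal of ND CXCR6neg replicate 4 (-0.40, adjusted p = 0.21) or of both libraries that went against their gate (-0.38). It was also lost without any of ND CXCR6pos replicates 2, 5 or 6, CD-HFD CXCR6pos replicates 2, 3 or 5, or CD-HFD CXCR6neg replicates 1, 3 or 4, and 0 to 3 members passed as single libraries were left out. Rps18 (-0.49, adjusted p = 0.058) and Rpl29 (-0.55, adjusted p = 0.065) came next.

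Against spleen, CXCR6pos cells of both diets had lower levels of most members. In CD-HFD mice 59 of 78 were lower and 2 higher (13.3% and 12.5% of all genes), with a median of -0.62. In ND mice 50 were lower and 2 higher (6.98% and 7.43% of all genes), with a median of -0.40. The libraries did not overlap for 53 members in CD-HFD and 24 in ND mice, all lower, and 1 more was higher in each. These counts were not made over all genes. Of the 56 members of at least 200 CPM, 54 were lower in CD-HFD and 46 in ND mice. By subunit, 25 of 31 Rps and 34 of 47 Rpl genes were lower in CD-HFD mice and 21 and 29 in ND mice.

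The members of smallest p in CD-HFD mice were Rps18 (-0.95 ± 0.10, adjusted p = 5.9e-14), Rpl29 (-1.07 ± 0.11, adjusted p = 5.9e-14), Rps19 (-1.02 ± 0.11, adjusted p = 2.0e-13), Rpl13 (-0.86), Rps24 (-0.89) and Rpl8 (-0.80). Rps19 stood at 4537 to 5998 CPM (median 5301) in CD-HFD spleen, above every CXCR6pos library. In ND mice they included Rps15 (-0.61 ± 0.11, adjusted p = 4.8e-06), Rpl23 (-0.61), Rps26 (-0.61), Rplp0 (-0.50) and Rpl8 (-0.51). Rps15, a protein of the small subunit head, was at -0.74 in CD-HFD mice. The stalk genes were lower in both diets, Rplp0 at -0.72 and -0.50, Rplp1 at -0.72 and -0.53, and Rplp2 at -0.76 and -0.50 in CD-HFD and ND mice. Rpl3 was lower in CD-HFD mice (-0.55, adjusted p = 7.4e-06) and at -0.22 in ND mice (adjusted p = 0.13).

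The dependence of this difference on diet was tested as a second interaction. It passed for 8 members, all more negative in CD-HFD mice, against 2.77% lower and 1.21% higher among all genes. They were Rps18 (-0.57 ± 0.14, adjusted p = 0.0049), Rpl29 (-0.63 ± 0.15, adjusted p = 0.0050), Rps28 (-0.70 ± 0.18, adjusted p = 0.0067), Rpl13 (-0.50), Rps24 (-0.51), Rps19 (-0.52), Rps2 (-0.58) and Rpl41 (-0.44). Rps18, Rpl29 and Rps28 kept the call under all 33 alternatives run. The count was 3 without ND CXCR6pos replicate 5, 4 without ND spleen replicate 2 and 5 without any of ND CXCR6pos replicates 2 or 6, CD-HFD CXCR6pos replicate 5, ND spleen replicate 5 or CD-HFD spleen replicate 1. The Rpl13 call was lost without ND CXCR6pos replicate 5 (adjusted p = 0.062). The Rps24 call was lost without that library, CD-HFD CXCR6pos replicates 4 or 5 or ND spleen replicates 2 or 5 (adjusted p up to 0.068). The Rps19 call was lost without ND CXCR6pos replicates 2, 5 or 6, CD-HFD CXCR6pos replicate 5, ND spleen replicate 2 or CD-HFD spleen replicates 1 or 2 (adjusted p up to 0.067). With DESeq2, the Rps24 and Rps19 calls were also lost (adjusted p = 0.061 and 0.058). In a fit with a term for the replicate number, those of Rpl13 and Rps19 were lost (adjusted p = 0.0997 and 0.077). Rps2 and Rpl41 were not followed singly. Rps18, Rpl29 and Rps28 made up the 3 calls left without ND CXCR6pos replicate 5, so Rps2 and Rpl41 lost theirs there. This interaction test shares its CXCR6pos libraries with the diet comparison above.

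**Figure D4:**
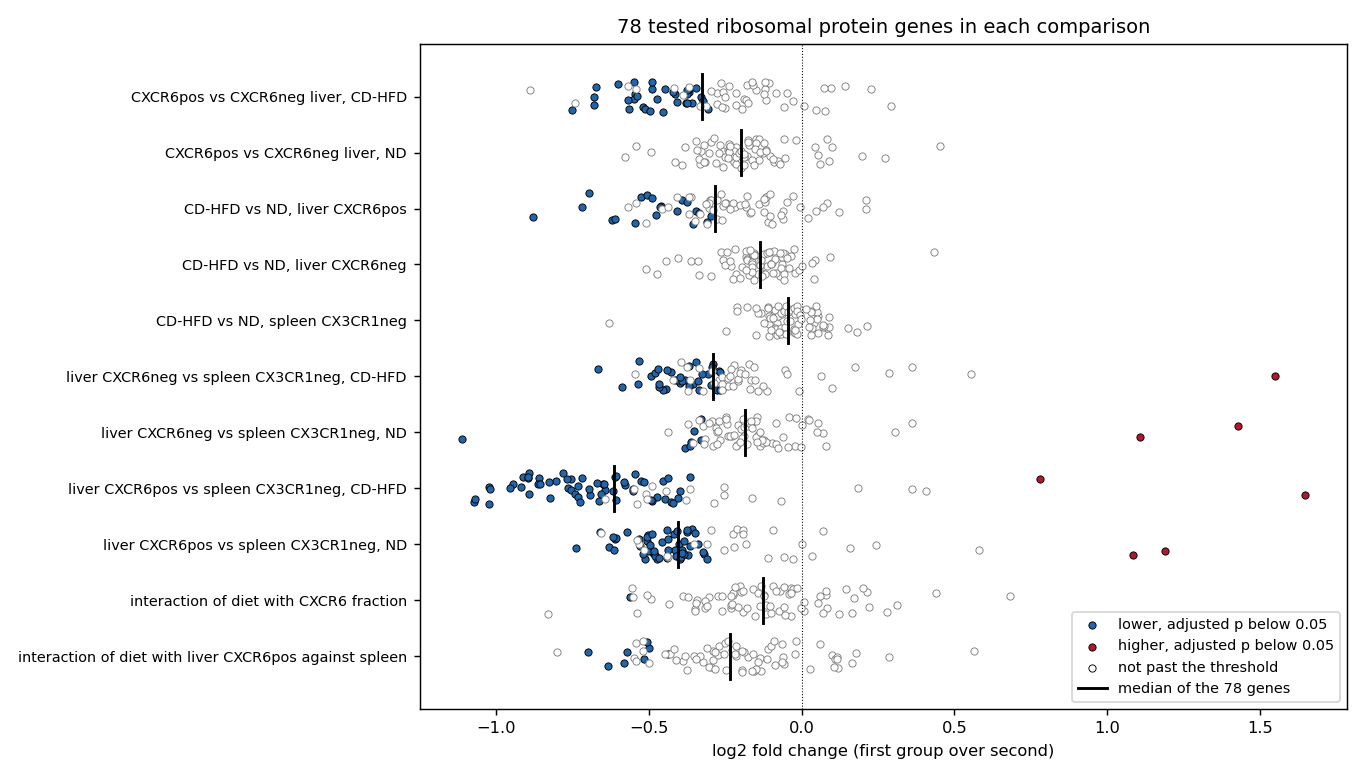
Log2 fold change of the 78 tested ribosomal protein genes in each comparison, each point a gene, filled where the adjusted p is below 0.05, with the median as a bar. The medians are -0.62 and -0.40 for CXCR6pos against spleen in CD-HFD and ND mice and -0.05 for diet in the spleen.

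CXCR6neg liver cells also lay below spleen. In CD-HFD mice 34 of 78 members were lower and 1 higher (4.71% and 5.73% of all genes), with a median of -0.29. The libraries did not overlap for 28 members, a count not made over all genes. The leading genes included Rpl22 (-0.49 ± 0.10, adjusted p = 0.00012), Rps28 (-0.53 ± 0.11, adjusted p = 0.00025), Rps24 (-0.45), Rpl23 (-0.45) and Rpl39 (-0.67 ± 0.14, adjusted p = 0.00081). Rpl22 was at 543 to 767 CPM (median 725) in CXCR6neg and at 939 to 1037 (median 988) in spleen libraries, with no overlap. Rpl39, a short protein of the exit tunnel, averaged 1059 and 1687 CPM. The count of calls was 18 without CD-HFD CXCR6neg replicate 2 and 23 without CD-HFD spleen replicate 2.

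In ND mice 7 members were lower and 2 higher in CXCR6neg than in spleen cells (2.14% and 4.73% of all genes), with a median of -0.18. The lower genes included Rps27l, Rpl32, Rpl23, Rpl34, Rps15a and Rps15, and the groups overlapped for Rpl23, Rpl34, Rps15a and Rps15. Counts of calls ran from 3 to 17 as single libraries were left out: 3 without ND CXCR6neg replicate 4, ND CXCR6neg replicate 5 or ND spleen replicate 3, 4 without ND spleen replicate 1, and 17 without ND CXCR6neg replicate 2. Rps27l kept its call under all alternatives run. Rpl32, Rpl23, Rpl34 and Rps15a each lost theirs without ND CXCR6neg replicate 4 or 5 or ND spleen replicate 3, and without the 2 ND libraries that went against their gate (adjusted p up to 0.34). Rpl23, Rpl34 and Rps15a also lost theirs without ND spleen replicate 1, and Rps15a without ND spleen replicate 2. Rps15 was not followed singly. Without the 2 ND libraries that went against their gate, the 3 calls left were those of Rps27l, Rpl10 and Rps27. The Rps15 call was thus lost there.

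Markers of other cells also differed between organs. B cell markers summed to 2640 to 4133 CPM in CD-HFD and 2164 to 3492 CPM in ND spleen, and of the 5 tested 4 (CD-HFD) and 3 (ND) were lower in CXCR6pos cells, while 0 of 9 plasmacytoid dendritic cell markers passed in either diet. Hemoglobin and other erythroid genes summed to 2349 to 5079 CPM in CD-HFD spleen and 3654 to 10573 CPM in CD-HFD CXCR6pos cells. In ND mice these genes summed to 818 to 1959 CPM in spleen, below the CXCR6pos (2261 to 6095) and CXCR6neg libraries (3900 to 9018). Plasmacytoid dendritic cell markers were higher in CXCR6neg than in spleen cells, 8 of 9 in CD-HFD mice (974 to 1580 CPM against 257 to 464) and 7 of 9 in ND mice (660 to 1304 CPM against 276 to 334). Of the 5 B cell markers, 3 were lower and 1 higher in CXCR6neg cells of CD-HFD mice, and 2 lower and 1 higher in those of ND mice. Hepatocyte markers stayed at 246 CPM or below in every library, and none of the 7 passed the filter. The part of these cells was not tested.

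A few members went against the others, being higher in liver than in spleen cells. Rpl10, a late-joining large subunit protein at the P site, was at 47.3, 40.5, 31.1, 37.5 and 53.1 CPM in CD-HFD CXCR6pos libraries and at 6.01 to 17.1 CPM (median 9.65) in CD-HFD spleen. No library crossed over, and the log2 fold change was 1.65 ± 0.35 (adjusted p = 9.0e-05). It was also higher in CD-HFD CXCR6neg (1.55 ± 0.33, adjusted p = 0.00029), ND CXCR6neg (1.43 ± 0.34, adjusted p = 0.0014) and ND CXCR6pos cells (1.09 ± 0.31, adjusted p = 0.0087). Rps27, a zinc finger protein of the small subunit, was higher in CD-HFD CXCR6pos (0.78 ± 0.27, adjusted p = 0.022), ND CXCR6pos (1.19 ± 0.25, adjusted p = 0.00020) and ND CXCR6neg cells (1.11 ± 0.29, adjusted p = 0.0049) than in spleen of the same diet. The Rps27 call in CD-HFD CXCR6pos cells was lost without CXCR6pos replicates 1 or 2 (adjusted p = 0.14 and 0.070) and with no filter (adjusted p = 0.12), and that in ND CXCR6neg cells without CXCR6neg replicate 5 (adjusted p = 0.086). The Rpl10 call in ND CXCR6pos cells was lost without CXCR6pos replicate 6 (adjusted p = 0.052). These are low-count genes, with 295 counts for Rpl10 and 458 for Rps27 over all libraries, and 88.2% of the 75 base windows near the end of the Rpl10 transcripts occur in other genes too.

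Rps27l, the paralog of Rps27 and a p53 target, went the other way. It was at 73.4, 104, 121 and 106 CPM in ND CXCR6neg and at 220, 239, 212, 250 and 201 CPM in ND spleen libraries, with no overlap (-1.11 ± 0.17, adjusted p = 3.9e-07). It was lower in the other 3 liver groups too, at -0.66 in ND CXCR6pos, -0.47 in CD-HFD CXCR6neg and -0.55 in CD-HFD CXCR6pos cells. The call in CD-HFD CXCR6neg cells was lost with DESeq2 (adjusted p = 0.057) and without CXCR6neg replicates 1, 3 or 6 or spleen replicates 5 or 6 (adjusted p up to 0.10). Only 9.57% of its windows occur elsewhere. Of the other pairs, Rpl7 was lower in CD-HFD CXCR6pos cells than in spleen (-0.45, adjusted p = 0.0014), and Rpl7l1, whose product acts in ribosome assembly, was at -0.51 (adjusted p = 0.061). Rpl36al was lower in that comparison (-0.36, adjusted p = 0.017), but not without CXCR6pos replicate 2 (adjusted p = 0.086).

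With the counts of pseudogene copies added to their gene, an alternative chosen after seeing the data, 86 members passed the filter. In CXCR6pos against spleen cells 74 were then lower and 0 higher in CD-HFD mice, and 65 lower and 1 higher (Rps27, 0.54, adjusted p = 0.049) in ND mice. Among all 6069 genes of that fit, 12.5% were lower and 12.3% higher in CD-HFD and 6.28% lower and 7.53% higher in ND mice. Rpl10 was no longer past the threshold in any liver group: 0.56 ± 0.27 in CD-HFD CXCR6pos (adjusted p = 0.12), 0.63 in CD-HFD CXCR6neg (adjusted p = 0.083), 0.72 in ND CXCR6neg (adjusted p = 0.081) and 0.42 in ND CXCR6pos cells (adjusted p = 0.28). Rps27 was no longer past it in CD-HFD CXCR6pos (0.19 ± 0.21, adjusted p = 0.59) or ND CXCR6neg cells (0.64, adjusted p = 0.053). Rps13 moved from 0.36 on the gene alone to -0.45 ± 0.11 (adjusted p = 0.00042), and Rpl15 from 0.41 to -0.47 ± 0.18 (adjusted p = 0.045). Rps27l stayed lower in ND CXCR6neg cells (-1.11, adjusted p = 1.1e-07).

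Members untested on their own could be tested in this way. In the gene with its copies, CD-HFD CXCR6pos cells were below spleen for Rps6 (-0.66 ± 0.10, adjusted p = 8.8e-08), Rpl5 (-0.91 ± 0.12, adjusted p = 2.8e-09), Rps29 (-0.81), Rpl24 (-0.75) and Rpl36a (-0.93). The same 5 were lower than in CXCR6neg cells of CD-HFD livers, at -0.41 for Rps6 and -0.46 for Rpl5, and lower than in ND CXCR6pos cells, at -0.36 and -0.41. Rps6 with its copies averaged 764 ± 77.3 CPM (SD, n = 5) in CD-HFD CXCR6pos, 962 ± 138 (n = 6) in ND CXCR6pos, 1027 ± 93.6 (n = 6) in CD-HFD CXCR6neg and 1223 ± 111 CPM (n = 6) in CD-HFD spleen libraries. Within CD-HFD livers 41 of 86 were lower in CXCR6pos cells (6.16% lower and 4.60% higher among all genes), and for diet in CXCR6pos cells 30 of 86 (6.24% lower and 4.75% higher).

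**Figure D5:**
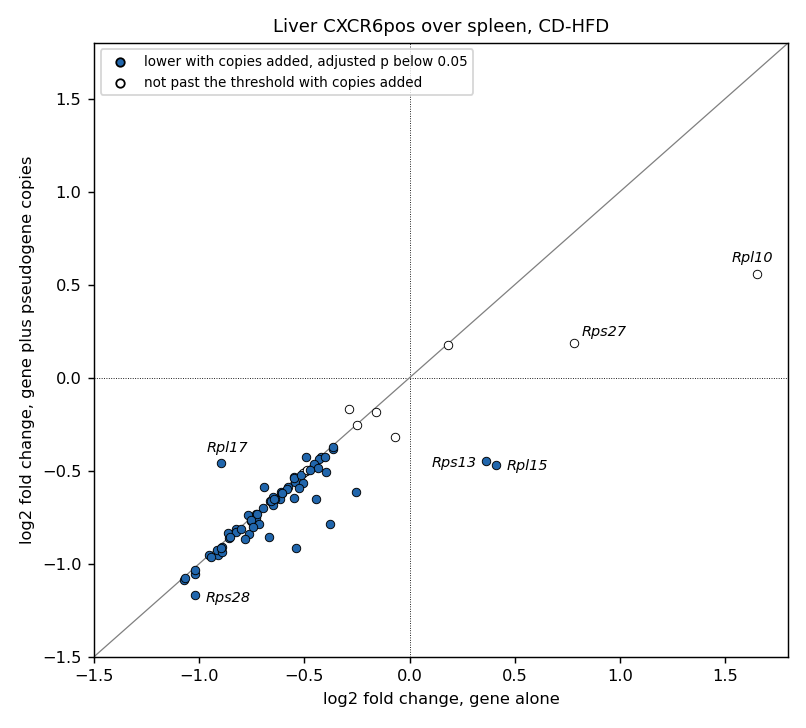
Log2 fold change of CD-HFD CXCR6pos over CD-HFD spleen for each gene alone (horizontal) and with its pseudogene copies added (vertical), each point a ribosomal protein gene and the line marking equal values. Most points lie near the line, while Rps13 and Rpl15 change sign and Rpl10 drops from 1.65 to 0.56.

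Other genes of the translation machinery were compared by lists. Beside their counts, the shares of all genes called lower and higher were 6.38% and 4.76% for CXCR6pos against CXCR6neg cells of CD-HFD livers, 6.45% and 4.84% for diet in CXCR6pos cells, and 13.3% and 12.5% for CXCR6pos against spleen cells of CD-HFD mice. The mitochondrial ribosomal proteins, built by a separate gene family, gave 0 calls of 71 between CXCR6pos and CXCR6neg cells of CD-HFD livers (median -0.11) and 1 higher and 1 lower with diet in CXCR6pos cells (Mrpl52 at 0.38, Mrpl33 at -0.50). Against spleen in CD-HFD mice, 2 were higher and 6 lower (median -0.26). Of 9 elongation factors 3 were lower in CD-HFD CXCR6pos than CXCR6neg cells, Eef1g (-0.59, adjusted p = 0.00013), Eif5a (-0.39) and Eef1b2 (-0.46), and Eef1g was lower with diet in CXCR6pos cells (-0.40). Rack1, a scaffold protein of the small subunit, was lower within CD-HFD livers (-0.43, adjusted p = 0.0040). Of 37 initiation factors, Eif3i alone was lower there (-0.61) and with diet in CXCR6pos cells (-0.39), while against spleen in CD-HFD mice 3 were higher, led by Eif1 (1.10), and 4 lower.

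Genes for making ribosomes and for their control were compared in the same way. Set against the same shares, of 54 ribosome biogenesis factors 6 were lower and 0 higher in CXCR6pos than CXCR6neg cells of CD-HFD livers, among them Dkc1 (-0.78), Nhp2 (-0.50) and Gar1 (-1.42), all parts of the pseudouridylation complex, and 17 were lower against CD-HFD spleen. With diet in CXCR6pos cells 1 was lower, Wdr12 (-1.33). Of 13 tested subunits and factors of RNA polymerases I and III none passed within the liver. Of 11 other mRNAs known for TOP tracts, 4 were lower within CD-HFD livers, including Vim (-0.88), Npm1 (-0.49) and Gas5 (-0.38), and Pfdn5 was higher (0.34). Of 15 regulators, Myc was lower in CD-HFD CXCR6pos cells than in CXCR6neg (-0.93 ± 0.22, adjusted p = 0.0011), ND CXCR6pos (-0.88 ± 0.21, adjusted p = 0.0016) and spleen cells (-1.21 ± 0.20, adjusted p = 2.0e-07). Mxd4, which competes with Myc for Max, was higher than in CXCR6neg cells (1.06, adjusted p = 0.023).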

How the data were processed

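Bulk 3' RNA-seq of sorted CD8 T cells was analysed from the table of raw counts per gene that the authors deposited; genome build GRCm38.p6 and DESeq2 1.14.1 are named in the submitters' processing notes, and neither the aligner nor whether reads or molecules were counted is given in the sources used here. Of 35 labelled samples 34 matched a column, 1 column matched no label and was not used, and CD-HFD CXCR6pos replicate 6 was not analysed here. The 2 columns of ND CXCR6neg replicate 1 and ND spleen replicate 6 held identical values and were left out, which leaves 32 libraries.

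All 6 groups were fitted together with edgeR 4.0.16 (R 4.3.3; TMM scaling, filterByExpr by group, robust quasi-likelihood test, Benjamini-Hochberg over 6174 genes, threshold 0.05), checked on simulated data. CPM uses library sizes summed over the genes that passed the filter and scaled by TMM, while percent shares use all counts of a library. SE is the absolute log2 fold change over the root of F. DESeq2 1.42.0, other scalings and filters, and leaving out libraries were alternatives. Pseudogene copies were found from shared 75 base windows in GENCODE M21 transcripts (502) or by name (91). Deviations of same-numbered replicates from their group means, over all tested genes and with pairs across diets included, had correlations of -0.06 to 0.08. Noise of low counts also keeps such correlations near 0, so they cannot exclude pairing. Named genes were the 6 of smallest p per comparison and direction, genes fixed by role, the 5 highest and lowest, those against the majority, and up to 4 of each list; Rps13 and Rpl15 were named after their values were seen. Members and lists were chosen with earlier results of these data known. A few genes that this rule names are not reported here.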

Additional observations from a re-analysis of the deposited data

Results flagged for a closer look

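Among 90 groups of 4 to 6 libraries examined for a value far from the others, 4 held one, and chance gives about 1 in 20. Rps27 was at 70.9 CPM in CD-HFD CXCR6neg replicate 6, above the other 5 libraries (36.2 to 42.5 CPM). Rps27 was at 148 CPM in ND CXCR6pos replicate 1, the library with 15633 counts, against 51.4 to 83.5 CPM in the others. With 458 Rps27 counts over all libraries, its value in so shallow a library rests on very few counts. Rps19 was at 3467 CPM in ND CXCR6neg replicate 4, below 5172 CPM in the next library, and this library also had the highest Cxcr6 of its gate. Rplp0 was at 4082 CPM in ND spleen replicate 5, below 4743 CPM in the next.

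The remaining entries are effects that differed between diets by an interaction test. For CXCR6pos against CXCR6neg cells this was Rps19 (-0.56). For CXCR6pos against spleen cells these were Rps18 (-0.57), Rpl29 (-0.63), Rps28 (-0.70), Rpl13 (-0.50), Rps24 (-0.51), Rps19 (-0.52), Rps2 (-0.58) and Rpl41 (-0.44).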

How the results depend on the processing

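Counts of members called (in either direction) kept within 1.5 times of the values in the report for CXCR6pos against CXCR6neg cells in CD-HFD livers and for CXCR6pos against spleen cells under every alternative run. Under other settings the following counts moved, and the cause was not tested. Library totals alone gave 34 calls for diet in CXCR6pos cells. In CXCR6pos against CXCR6neg cells of ND livers, DESeq2 gave 2, the replicate block 1 and leaving out the 2 ND libraries that went against their gate 1. In CXCR6neg against spleen cells of ND mice, the identical library kept in both groups gave 2, only the groups compared 3, the replicate block 5, copies added 4, and leaving out the 2 ND libraries 3. The interaction of diet with the CXCR6 fraction gave 3 with DESeq2 size factors, 5 with library totals alone, 2 with copies added, and 0 with DESeq2, the identical library kept, only the groups compared, the replicate block or the 2 ND libraries left out. The interaction with spleen gave 5 with DESeq2 and 4 with the replicate block. The replicate block changed no other count by over 1.5 times (26 calls for diet in CXCR6pos cells). The labels do not say whether same-numbered samples share more than a number. With copies added, the mean shares of counts were 12.8%, 16.8% and 20.4% in CD-HFD CXCR6pos, CXCR6neg and spleen libraries and 16.2%, 18.1% and 21.0% in ND ones.

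With 1 library left out in turn, calls ranged from 23 to 36 (CXCR6pos against CXCR6neg, CD-HFD), 0 to 1 (ND), 13 to 31 (diet, CXCR6pos), 0 to 0 (diet, CXCR6neg and spleen), 18 to 36 (CXCR6neg against spleen, CD-HFD), 3 to 17 (ND), 59 to 63 (CXCR6pos against spleen, CD-HFD), 44 to 53 (ND), 0 to 3 (interaction with CXCR6) and 3 to 9 (interaction with spleen). Of 82 called results of named genes, 55 kept the call under all alternatives run, 27 lost it in at least 1 and 0 reversed. The 2 alternatives on copies and on the ND gates were added after seeing the data. Depth limits the members below 200 CPM most, and counts on near-identical copies leave the level of single genes uncertain.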
